A study of Mus musculus with 18 samples.

Results

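The cells described here are 508 of 47251 cells kept from mouse skin, 1.08% of them, chosen by RNA as candidate Langerhans cells. A cell was a member if it had at least 2 UMIs of Cd207 (langerin), at least 1 of Epcam and at least 5 of the MHC class II genes H2-Aa, H2-Ab1 and Cd74 together. A UMI is a counted RNA molecule. A member also had under 2 UMIs of Xcr1 and Clec9a together, none of Cd3d, Cd3e and Cd3g, and under 0.3% of its UMIs from the keratins Krt5 and Krt14. These genes chose the members, so their levels are given as a description. As shown next, genes that the rule did not use divide the members, and most members carried RNA that marks dermal dendritic cells. They are therefore called Cd207+ Epcam+ cells and not Langerhans cells.

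Langerhans cells are the resident antigen-presenting cells of the epidermis. They sit between keratinocytes, to which they hold through adhesion molecules, depend on signalling through the receptor CSF1R and on TGF-beta, and carry antigen to the draining lymph node when they mature. Langerin, a lectin that takes up sugars and forms Birbeck granules, is their best known marker, but some dendritic cells of the dermis and of other tissues also make it.

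The series asked how skin responds to stretch. All mice were operated on; in the EXP arm a hydrogel expander was placed under the back skin near the neck, and the CTRL arm had the surgery without an expander. Skin was taken on day 1 (sequencing rounds 1 and 2), day 2 (rounds 1 and 2) and day 4 (round 1), which gives 5 libraries per arm, named here by day and round as D1-1, D1-2, D2-1, D2-2 and D4-1. Living cells of all types were sorted, CTRL mice of a round were pooled in 1 tube and EXP mice in another, and 3′ mRNA was counted on the 10x Genomics platform. The labels used here give no strain, age or sex. A library is therefore a pool of mice, and p-values over libraries measure the spread between pools.

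Libraries held 17726739 to 75470722 gene UMIs and 1927 to 8312 kept cells. Members numbered 39, 86, 9, 93 and 125 in the CTRL libraries D1-1, D1-2, D2-1, D2-2 and D4-1, and 23, 38, 36, 26 and 33 in the EXP libraries in the same order. The arms total 352 CTRL and 156 EXP members. The median member had 8677 to 18856 UMIs, depending on the library. A UMI of Ptprc, the pan-leukocyte gene Cd45, was found in 84.8% to 100% of the members of each library. No 2 libraries shared a member barcode. CTRL D2-1, with 9 members and 87801 UMIs in all, was too small for tests across genes, which rest on 4 CTRL and 5 EXP libraries.

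Around the thresholds of the rule, the share of cells with dermal dendritic cell RNA changed little, while Langerhans genes differed. The 118 cells with 1 Cd207 UMI, just outside, had at least 2 UMIs of Cd209a and Mgl2 together in 82.2% of cases, and the 74 members with 2 Cd207 UMIs, just inside, in 82.4%. The 307 cells without an Epcam UMI had 70.4%, the 90 members with 1 Epcam UMI had 75.6% and the 175 members with at least 9 had 53.7%. Cd209a (a DC-SIGN family lectin) and Mgl2 (a galactose lectin) are genes of dermal dendritic cells. Ltc4s, a Langerhans gene, went from 51.3 to 125 counts per 1000000 UMIs (CPM) between 1 and 2 Cd207 UMIs and from 10.5 to 27.9 CPM between 0 and 1 Epcam UMI, and Mfge8 from 328 to 224 CPM and from 117 to 361 CPM.

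Most members carried dermal dendritic cell RNA. Of the 508 members, 344 (67.7%) had at least 2 UMIs of Cd209a and Mgl2 together, and are called Mgl2-high below. The remaining 164 had fewer and are called Mgl2-low. This split was chosen after the data were seen, so it is described without a test. The limit of 2 UMIs was not adjusted for depth, and the 2 kinds differed in depth. The median was 8158.5 UMIs in CTRL and 12078 in EXP Mgl2-low cells, and 12925 and 16792.5 in Mgl2-high cells. Among the CTRL members 276 were Mgl2-high and 76 Mgl2-low; among the EXP members 68 were Mgl2-high and 88 Mgl2-low.

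**Figure D1:**
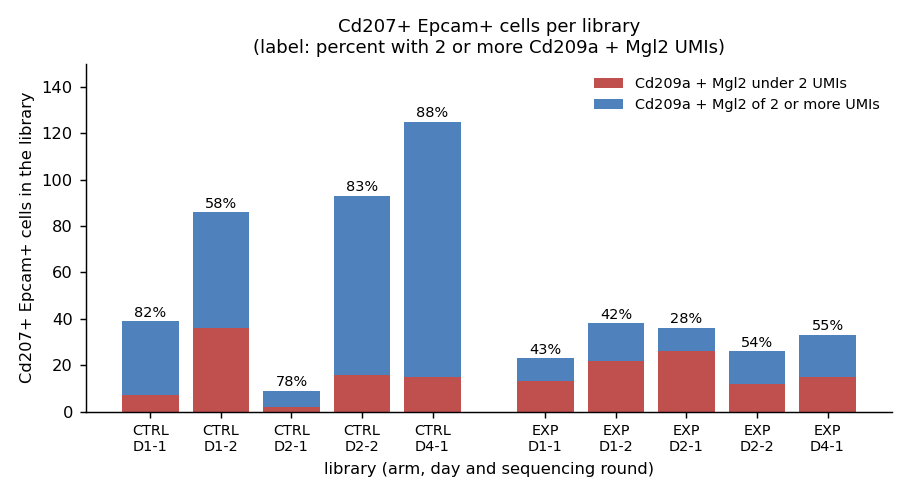
Cd207+ Epcam+ cells in each of the 10 libraries (x axis) as stacked counts of cells (y axis), divided into Mgl2-low cells (under 2 UMIs of Cd209a and Mgl2 together) and Mgl2-high cells; the label above a bar is the percentage of Mgl2-high cells. The 5 CTRL libraries lie at 58.1% to 88.0% Mgl2-high and the 5 EXP libraries at 27.8% to 54.5%.

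The Mgl2-low cells as a group carried more RNA of several Langerhans genes. Ltc4s, which makes leukotriene C4, stood at 315 CPM in CTRL and 546 CPM in EXP Mgl2-low cells, all cells of an arm pooled, and at 13.5 and 33.0 CPM in Mgl2-high cells. Hpgds, the prostaglandin D synthase of blood cells, stood at 525 and 842 CPM against 19.9 and 55.9 CPM. Mfge8, a bridge to dying cells, stood at 1729 and 3760 CPM against 148 and 143 CPM. Each of these 3 genes was more than 10 times as high in Mgl2-low as in Mgl2-high cells of the same arm. Not every Mgl2-low cell showed them. Ltc4s had a UMI in 42.9%, 47.2%, 93.8% and 80.0% of these cells in CTRL D1-1, D1-2, D2-2 and D4-1. In EXP libraries the share was 72.7% to 100%. Hpgds and Mfge8 were each found in 57.1% and 58.3% in CTRL D1-1 and D1-2, and in 81.8% to 100% in EXP libraries. These shares of cells were not adjusted for depth, and the median depth of Mgl2-low cells was lower in CTRL than in EXP.

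The same direction held for a second set of genes. The endocytic lectin receptor Ly75 (DEC-205) stood at 182 CPM in CTRL and 307 CPM in EXP Mgl2-low cells, against 22.6 and 48.0 CPM in Mgl2-high cells. Csf1r, the receptor on which Langerhans cells depend, stood at 236 and 619 CPM against 143 and 209 CPM. Irf8, a transcription factor of several dendritic cell lineages, stood at 535 and 473 CPM against 73.8 and 101 CPM. Cd207 itself, which the rule used, was at 3332 and 1612 CPM in Mgl2-low and 813 and 675 CPM in Mgl2-high cells. Irf8 is also on the fixed list of conventional type 1 dendritic cell markers. Of that list, Wdfy4 had 187, 156, 0 and 29.8 CPM in Mgl2-low cells of CTRL D1-1, D1-2, D2-2 and D4-1. Naaa had 312, 494, 5.37 and 304 CPM there. In EXP Mgl2-low cells they had 0 to 16.5 and 10.5 to 157 CPM. Mgl2-high cells of those CTRL libraries had 23.4, 46.4, 32.3 and 19.6 CPM of Wdfy4 and 465, 460, 452 and 352 CPM of Naaa. Whether type 1 dendritic cells were among the Mgl2-low cells was not tested.

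Lyz2, Mrc1 and Ccr2, genes of macrophages, monocytes and dermal dendritic cells, ran the other way, but not all such genes did. C1qa, on the fixed macrophage list, was higher in Mgl2-low than in Mgl2-high cells in EXP. Lyz2, the myeloid lysozyme, was at 644 CPM in CTRL and 34.7 CPM in EXP Mgl2-low cells, and at 4087 and 2987 CPM in Mgl2-high cells. Mrc1, the mannose receptor, was at 71.9 and 27.8 CPM against 637 and 765 CPM. Ccr2, the receptor that brings monocytes into tissue, was at 57.2 and 12.1 CPM against 118 and 265 CPM. Cells gated as dermal dendritic cells (Cd209a and Mgl2 together at least 2 UMIs, Cd207 under 2, the complement genes C1qa, C1qb and C1qc together under 5) had 6680 and 2658 CPM of Lyz2 and 27.1 and 56.9 CPM of Mfge8. On these genes the Mgl2-high members lay nearer to the dermal dendritic cells than the Mgl2-low members did.

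Not all Langerhans genes followed the split. Hepacam2, on the fixed Langerhans list, was at 54.3 CPM in CTRL and 10.4 CPM in EXP Mgl2-low cells and at 73.1 and 22.9 CPM in Mgl2-high cells. Id2, an inhibitor of DNA-binding factors that Langerhans cells need, was at 437 and 457 CPM in Mgl2-low and 1087 and 705 CPM in Mgl2-high cells. Cdh1, the E-cadherin that holds Langerhans cells to keratinocytes, was at 157 and 248 CPM against 88.5 and 160 CPM, a smaller difference than that of Mfge8 or Ltc4s.

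**Figure D2:**
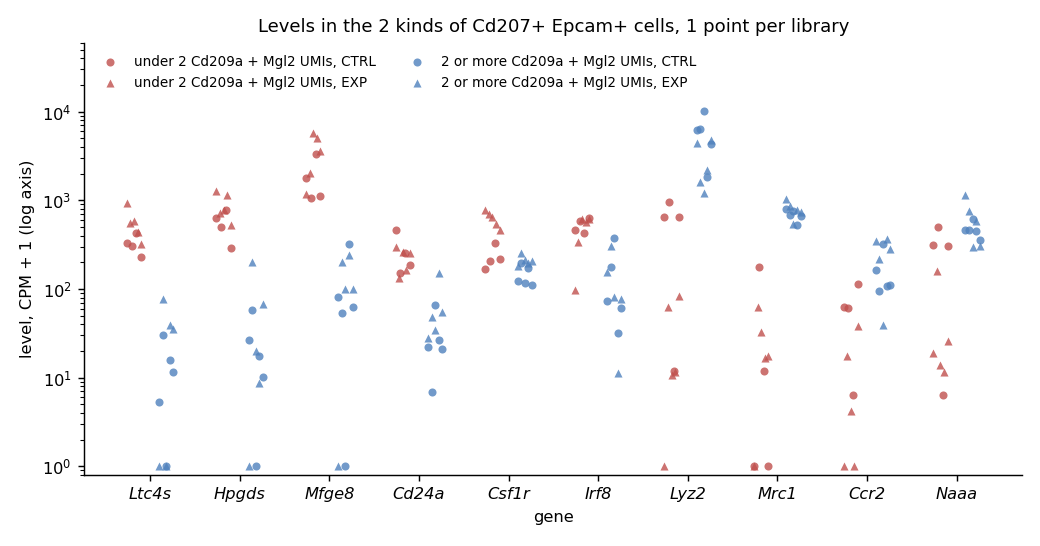
Level of 10 genes in Mgl2-low and Mgl2-high Cd207+ Epcam+ cells, as CPM + 1 on a log axis (y); each point is a library with at least 7 cells of that kind, circles CTRL and triangles EXP. Ltc4s, Hpgds and Mfge8 lie higher in the Mgl2-low cells and Lyz2, Mrc1 and Ccr2 higher in the Mgl2-high cells.

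The makeup of the members differed between the arms. Mgl2-high cells were 82.1%, 58.1%, 77.8%, 82.8% and 88.0% of the members in CTRL D1-1, D1-2, D2-1, D2-2 and D4-1. They were 43.5%, 42.1%, 27.8%, 53.8% and 54.5% of the members in the EXP libraries in that order. The lowest CTRL library lay above the highest EXP library. The mean was 77.8% ± 11.5 (SD, n = 5) in CTRL and 44.4% ± 10.9 (SD, n = 5) in EXP. In counts summed over all members, a change of this makeup and a change inside the cells cannot be told apart. Values within each kind are therefore given beside some of the gene results. The kinds can be mixed themselves, so the same limit holds within them.

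Whether members were more or less frequent with expansion depended on the cells they were counted against. Among all kept cells they were 1.07% ± 0.552 in CTRL and 0.960% ± 0.271 in EXP (SD, n = 5 each; exact two-sided permutation test, p = 0.698, adjusted over 4 denominators 0.698). Among cells with a Ptprc UMI they were 3.90% ± 1.86 and 2.62% ± 0.80 (exact permutation p = 0.198, adjusted 0.265). EXP was above CTRL in 2 of 5 pairs of day and round in both cases. Neither difference exceeded the spread between libraries.

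Against antigen-presenting cells and against keratinocytes the 2 arms differed in opposite directions, and neither difference passed the test after adjustment. Among cells that met the MHC class II, Cd3 and keratin limits of the rule, members were 3.90%, 6.48%, 1.92%, 7.46% and 7.35% in the CTRL libraries and 9.13%, 8.66%, 7.52%, 10.4% and 6.11% in the EXP libraries. The EXP share was higher in 4 of 5 pairs, and the arms overlapped only through EXP D4-1, which lay below 3 CTRL libraries (5.42% ± 2.43 against 8.36% ± 1.63, SD, n = 5 each; exact permutation p = 0.0635, adjusted 0.127). Per 100 keratinocytes there were 73.1 ± 49.5 members in CTRL and 24.6 ± 21.8 in EXP (SD, n = 5 each; exact permutation p = 0.0476, adjusted 0.127). That ratio was lower in EXP in 5 of 5 pairs, the smallest sign-flip p that 5 pairs allow being 0.0625; it rests on 14 to 217 keratinocytes per CTRL library and 64 to 569 per EXP library.

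The 2 kinds of members went different ways among all kept cells and among Ptprc+ cells, and less clearly against the other denominators. Mgl2-low cells were 0.427% to 2.71% of the antigen-presenting cells in CTRL libraries and 2.78% to 5.43% in EXP libraries, higher in EXP in 5 of 5 pairs and without overlap (mean 1.20% ± 0.901 against 4.64% ± 1.06, SD, n = 5 each). The antigen-presenting cells were themselves a smaller part of the kept cells in EXP. Of all kept cells, Mgl2-low cells averaged 0.224% in CTRL and 0.528% in EXP, higher in EXP in 4 of 5 pairs. Mgl2-high cells averaged 0.851% and 0.432%, lower in EXP in 5 of 5 pairs. Mgl2-high cells were 3.06% of the Ptprc+ cells in CTRL and 1.19% in EXP on average, and lower in EXP in 5 of 5 pairs. Mgl2-low cells were 0.835% and 1.42% of the Ptprc+ cells, higher in EXP in 4 of 5 pairs. Of the antigen-presenting cells, Mgl2-high cells averaged 4.22% in CTRL and 3.73% in EXP, higher in EXP in 2 of 5 pairs. Per 100 keratinocytes there were 13.6 Mgl2-low cells in CTRL and 14.5 in EXP, higher in EXP in 2 of 5 pairs. For Mgl2-high cells that ratio was 59.5 and 10.1, lower in EXP in 5 of 5 pairs. These shares come from the split made after the data were seen and were not tested.

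**Figure D3:**
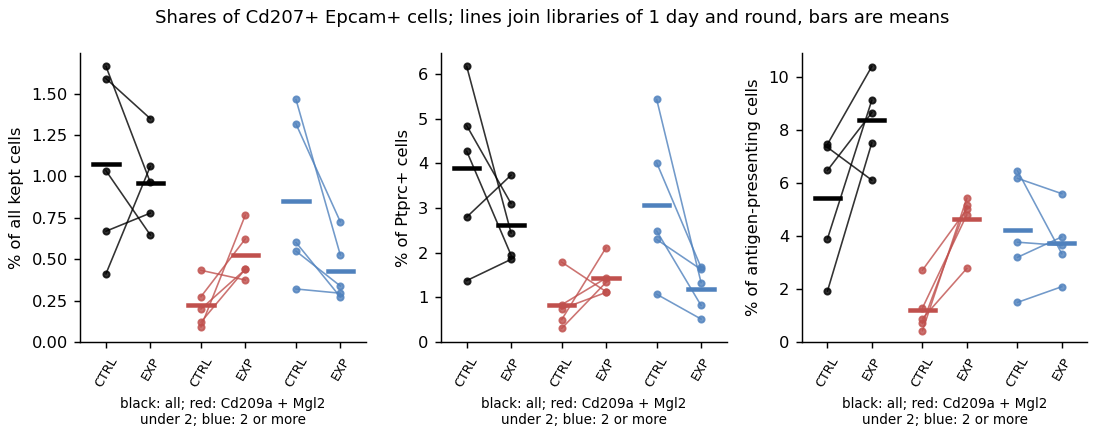
Cd207+ Epcam+ cells as percent of all kept cells, of Ptprc+ cells and of antigen-presenting cells (y axes) in CTRL and EXP libraries (x axis): all members in black, Mgl2-low in red, Mgl2-high in blue; thin lines join libraries of the same day and round, bars are means of 5 libraries. Of the antigen-presenting cells the Mgl2-low share rises along each of the 5 lines, from a mean of 1.20% to 4.64%. The antigen-presenting cells were a smaller part of the kept cells in EXP.

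Hashtag antibodies, which mark the cells of each mouse, allowed a count per mouse in 8 libraries. Of 446 members in those libraries 408 (91.5%) belonged to 1 of 28 mice and 38 carried more than 1 hashtag. Members were 4.2% ± 2.52 of the assigned Ptprc+ cells in CTRL mice (0.461% to 10.1%) and 3.02% ± 2.79 in EXP mice (0.157% to 9.21%; SD, n = 14 each; permutation within day and round, p = 0.230). On day 4 they were 5.95% ± 3.16 in CTRL and 2.10% ± 0.934 in EXP mice (SD, n = 4 each; exact permutation p = 0.0857). On day 2 the means were 3.14% in both arms. Mice of an arm and round shared a reaction, so arm and reaction cannot be told apart within a round.

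The share of members with signs of leaving the skin or of division showed no difference beyond the spread. With each member thinned to 2000 UMIs, Ccr7, the receptor that guides dendritic cells to lymph nodes, had a UMI in 10.4% ± 9.14 of CTRL and 11.5% ± 8.30 of EXP members (SD, n = 5 libraries each; exact permutation p = 0.841, adjusted 0.849). Unthinned, the shares were 18.4% and 21.7%. Collagen-making stromal cells, which should lack Ccr7, had 0.0651% and 0% when thinned, where the median depth was 10397.5 and 15136 UMIs per cell against 11962.5 and 13700 in members. The Ccr7 signal of the members was therefore above that background in both arms, in 51 of 351 CTRL and 19 of 156 EXP members.

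The Ccr7 share varied by library more than by arm. It was 5.13%, 7.06%, 0%, 21.5% and 18.4% in the CTRL libraries and 0%, 7.89%, 22.2%, 15.4% and 12.1% in the EXP libraries, thinned. The 0% of CTRL D2-1 is a share of 9 cells. Cycling members, with at least 2 UMIs over a list of cell cycle genes, were 5.92% ± 5.31 in CTRL and 6.85% ± 7.70 in EXP (SD, n = 5 each; exact permutation p = 0.849, adjusted 0.849). Stromal cells had 0.987% and 1.98% by the same measure, thinned. Unthinned, members had 25.6% and 42.3%, higher in EXP in 4 of 5 pairs. Unthinned stromal cells had 5.13% and 11.7%, higher in EXP in 5 of 5 pairs.

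RNA of other cells moved with the arm. The 9 fibroblast marker genes summed to 706 to 6672 CPM in the members of CTRL libraries and to 29.7 to 1667 CPM in those of EXP libraries; 7 to 9 of the 9 were detected in each library. At least 2 UMIs of Col1a1, Col1a2 and Col3a1 were found in 47.3% to 100% of the members of CTRL libraries and in 6.06% to 60.9% of those of EXP libraries, EXP D1-1 being the highest of its arm. The 7 neutrophil markers summed to 0 to 19.3 CPM in CTRL and 6.34 to 186 CPM in EXP. The 15 keratinocyte markers summed to 34.2 to 413 CPM and 90.9 to 468 CPM, and the 12 T cell markers to 11.4 to 177 CPM and 13.4 to 105 CPM. The part of this RNA in the results below was not tested beyond 1 alternative that left out the members with at least 2 collagen UMIs, which left 2 CTRL and 4 EXP libraries. There 48 of 64 named gene results were no longer called, and none turned direction.

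In the members, 492 of 6767 genes tested, 7.27%, differed between EXP and CTRL (edgeR adjusted p under 0.05, with the day also in the model). Of these, 164 were higher in EXP (2.42% of the genes tested) and 328 lower (4.85%). The 4 CTRL and 5 EXP libraries did not overlap in 832 genes, 12.3%. The count depended on single libraries: it was 128 without CTRL D4-1, 135 without EXP D4-1, 267 without EXP D1-2, 296 without CTRL D1-1, 300 without CTRL D1-2 and 310 without CTRL D2-2. It was 58 when members with at least 2 collagen UMIs were left out, and 43 of these 58 were among the 492. Of 72 called genes named here or in the closing section, 25 stayed called whichever of the 9 libraries was left out, and 9 lost their call only without a D4-1 library, the only pair of day 4.

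The genes that differed with expansion were in large part those that divide the members. Of the 164 genes higher in EXP, 146 (89.0%) were also higher in Mgl2-low than in Mgl2-high cells, with a median log2 ratio of 0.79 (8 libraries with at least 10 cells of each kind, 10 CPM added). Of the 328 genes lower in EXP, 75 (22.9%) were, with a median of -0.52. Over all genes tested, 4044 of 6767 (59.8%) were higher in Mgl2-low cells. Both comparisons use the same cells, so these counts are a description.

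**Figure D4:**
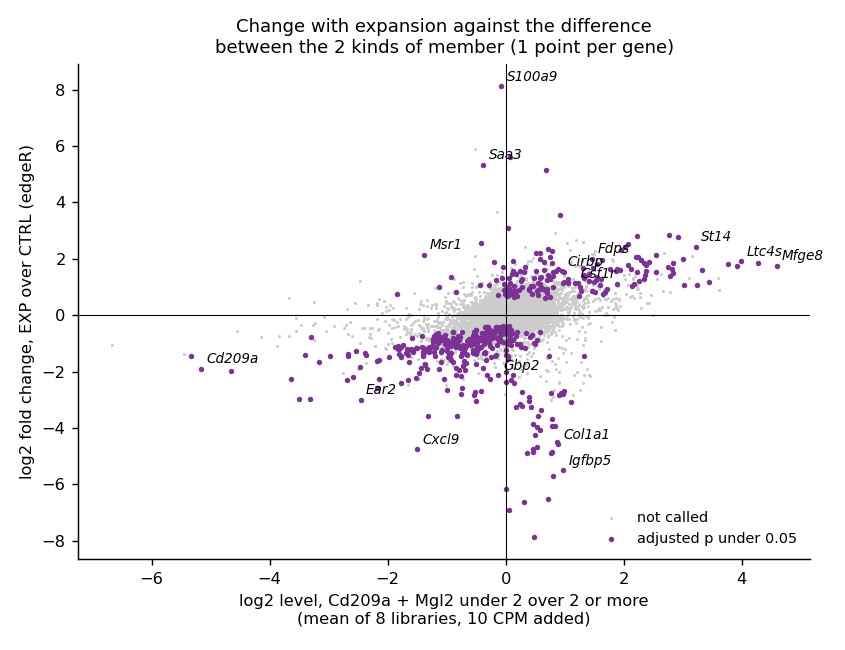
Each gene's log2 fold change of EXP over CTRL in all Cd207+ Epcam+ cells (y axis) against its log2 ratio of Mgl2-low over Mgl2-high cells (x axis), with genes at edgeR adjusted p under 0.05 in purple. Of the 164 higher genes 146 lie right of 0, and of the 328 lower genes 75 do.

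Within each kind the changes were smaller and mostly kept their direction. The median log2 fold change of the 164 higher genes was 1.34 over all members, 0.80 in Mgl2-low cells alone and 0.96 in Mgl2-high cells alone. Of those that could be tested, 136 of 139 were higher in EXP in Mgl2-low cells and 121 of 126 in Mgl2-high cells. Over all genes tested, called or not, 3013 of 4031 and 4671 of 5640 kept the direction of the fit over all members. The 328 lower genes had medians of -1.14, -0.63 and -0.83, and 197 of 219 and 303 of 303 were lower in EXP. The fits within a kind share their cells with the fit over all members. Few of these genes passed the test within a kind. Of the 164 higher genes 0 were called in Mgl2-low and 17 in Mgl2-high cells, and of the 328 lower genes 5 and 44. The Mgl2-low fit had 3 CTRL and 5 EXP libraries and the Mgl2-high fit 4 and 5.

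Of the 14 Langerhans identity genes tested 5 rose and 3 fell, beside 2.42% and 4.85% of all genes; the list's median log2 fold change was 0.72, and 0.01 over all genes tested. Without the members that had at least 2 collagen UMIs none rose and 1 fell, Hepacam2, with a median of 0.47. Ltc4s had 34.7, 123, 67.4 and 33.1 CPM in CTRL D1-1, D1-2, D2-2 and D4-1, and 491, 329, 346, 168 and 137 CPM in the EXP libraries. All EXP libraries lay above all CTRL libraries (log2 fold change 1.91, SE 0.33, edgeR adjusted p = 0.00986). Within Mgl2-low cells its log2 fold change was 0.54 and within Mgl2-high cells 1.01. Like Csf1r and Hepacam2, it kept its call without any 1 of the 9 libraries.

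Csf1r had 127, 198, 190 and 120 CPM in CTRL and 498, 490, 474, 305 and 299 CPM in EXP. The arms did not overlap, and the day 1 EXP libraries and EXP D2-1 were the highest (log2 fold change 1.12, SE 0.20, edgeR adjusted p = 0.010). Its log2 fold change was as large, 1.12, within Mgl2-low cells, where the CPM were 166, 208, 328 and 215 in CTRL against 781, 694, 650, 533 and 461 in EXP. The first of these CTRL libraries, D1-1, had 7 Mgl2-low cells and was not in that fit, which did not call Csf1r. Within Mgl2-high cells the log2 fold change of Csf1r was 0.36, and without the collagen-carrying members 0.53 (edgeR adjusted p = 0.514).

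Mfge8 had 237, 393, 707 and 173 CPM in CTRL and 615, 1191, 3459, 1837 and 1367 CPM in EXP. It was higher in EXP in 4 of 4 pairs, but EXP D1-1 lay below CTRL D2-2 (log2 fold change 1.75, SE 0.32, edgeR adjusted p = 0.0119). Its log2 fold change was 0.79 within Mgl2-low cells and -0.06 within Mgl2-high cells, where the direction turned. Ly75 rose by 1.53 and Cd24a, a heavily glycosylated surface protein, by 1.21 on the log2 scale (edgeR adjusted p = 0.0145 and 0.0119), and neither gene's arms overlapped. Within Mgl2-low cells, which carried more Cd24a, the pooled Cd24a level hardly differed, at 211 CPM in CTRL and 221 CPM in EXP. There the libraries of the arms overlapped. In Mgl2-high cells Cd24a stood at 21.0 and 73.8 CPM. Pooled Ly75 was higher in EXP in both kinds. Without CTRL D4-1 the edgeR adjusted p was 0.0503 for Mfge8, 0.0627 for Ly75 and 0.0623 for Cd24a, and without EXP D4-1 it was 0.0617 for both Ly75 and Cd24a.

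Hepacam2, an adhesion molecule of the same list, went the other way. It had 61.7, 63.6, 71.5 and 69.4 CPM in CTRL and 31.7, 17.6, 26.8, 8.58 and 10.4 CPM in EXP. All EXP libraries were lower (log2 fold change -2.13 with an SE of 0.32, edgeR adjusted p = 0.00635), with values of -2.18 within Mgl2-low and -1.71 within Mgl2-high cells. Dermal dendritic cells showed means of 47.9 CPM in CTRL and 11.9 CPM in EXP. Ahr, the aryl hydrocarbon receptor, fell by 0.99 and Id2 fell by 0.89 on the log2 scale (edgeR adjusted p = 0.0220 and 0.0483). Neither held without CTRL D1-2, CTRL D4-1 or EXP D4-1 (edgeR adjusted p up to 0.0904 for Ahr and 0.171 for Id2), and Id2 also not without CTRL D1-1, EXP D1-1, EXP D1-2, EXP D2-1 or EXP D2-2.

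Dermal dendritic cell markers fell in the members, 4 of 7 tested, with a median log2 fold change of -1.49, and 4 of 7 with a median of -1.33 without the collagen-carrying members. Cd209a, which the split used, had 621, 392, 617 and 655 CPM in CTRL and 301, 143, 95.6, 201 and 160 CPM in EXP without overlap. Its log2 fold change was -1.90 (edgeR adjusted p = 0.00635). Ear2, an eosinophil-type ribonuclease, fell by 3.0, Tnip3, an inhibitor of NF-kappaB signalling, by 1.49 and the lectin Cd209d by 1.43 on the log2 scale. The macrophage list had 1 gene up and 1 down among 7: C1qa, the complement subunit, rose from 19.3, 123, 125 and 74.4 CPM to 279, 402, 527, 285 and 358 CPM (log2 fold change 1.83, edgeR adjusted p = 0.0193), and the scavenger receptor Cd163 fell by 1.84. The calls of C1qa and Tnip3 did not hold without EXP D1-2, CTRL D4-1 or EXP D4-1, nor that of Cd163 without CTRL D1-1, CTRL D1-2, CTRL D4-1 or EXP D4-1 (edgeR adjusted p up to 0.0777, 0.0611 and 0.0973). The C1qa change was 1.60 within Mgl2-low cells and -1.79 within Mgl2-high cells.

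Cholesterol synthesis genes rose together: 6 of 15 tested rose, none fell, and all 15 had a positive log2 fold change, with a median of 0.99. Without the collagen-carrying members none of 14 passed the test, with a median of 0.57. Fdps, which makes farnesyl diphosphate, had 15.4, 16.5, 61.9 and 30.6 CPM in CTRL and 155, 108, 170, 163 and 159 CPM in EXP. The arms did not overlap, and EXP D1-2 was the lowest of its arm, apart from the other EXP libraries (log2 fold change 2.00, SE 0.26, edgeR adjusted p = 0.00494). Within Mgl2-low cells the log2 fold change was 1.33 and within Mgl2-high cells 1.45. Without the collagen-carrying members it was 1.09 (edgeR adjusted p = 0.188).

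The other 5 genes that rose on this list were the isomerase Idi1 (1.62), Hmgcs1 (1.23), which opens the pathway, Sqle (1.29), the squalene epoxidase, the squalene synthase Fdft1 (1.86) and the late enzyme Hsd17b7 (2.33, from 1.27 to 3.86 CPM in CTRL to 8.82 to 28.5 CPM in EXP), as log2 fold changes with edgeR adjusted p between 0.0189 and 0.0350. None of these 5 overlapped between the arms. Each of them missed the threshold without CTRL D4-1 or EXP D4-1 (edgeR adjusted p 0.0538 to 0.127), Idi1, Hmgcs1, Sqle and Fdft1 also without CTRL D1-2, and Hsd17b7 and Fdft1 without EXP D1-1. Hmgcs1 and Fdft1 missed it without CTRL D1-1 or CTRL D2-2 as well, Hmgcs1, Sqle and Fdft1 without EXP D2-2, and Fdft1 without EXP D1-2. Fdps kept its call without any 1 of the libraries. In dermal dendritic cells Fdps had means of 21.6 CPM in CTRL and 71.6 CPM in EXP. The difference of the 2 cell types' log2 changes was 0.66 (SE 0.45, edgeR adjusted p = 0.718), so a change particular to the members was not shown.

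Both cold-inducible RNA-binding protein genes rose. Cirbp had 34.7, 50.9, 24.8 and 30.0 CPM in CTRL and 124, 172, 113, 60 and 107 CPM in EXP, without overlap (log2 fold change 1.57, SE 0.24, edgeR adjusted p = 0.00635). Rbm3 had 655 to 819 CPM in CTRL and 1239 to 1813 CPM in EXP (log2 fold change 0.88, edgeR adjusted p = 0.00986, and 0.0587 and 0.0611 without CTRL D4-1 and EXP D4-1). Without the collagen-carrying members Rbm3 stayed called and Cirbp did not (log2 fold change 1.53, edgeR adjusted p = 0.0945). Within Mgl2-low and Mgl2-high cells the log2 fold changes were 1.54 and 1.09 for Cirbp and 1.01 and 0.95 for Rbm3. Dermal dendritic cells had a mean of 718 CPM of Rbm3 in CTRL and 1708 CPM in EXP.

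Of the 7 interferon-gamma response genes tested 3 fell and none rose, with a median log2 fold change of -1.15. Cxcl9, a chemokine that draws activated T cells, had 44.3, 43.3, 140 and 65.0 CPM in CTRL and 3.17, 11.0, 0, 1.72 and 1.49 CPM in EXP. All EXP libraries lay below all CTRL libraries (log2 fold change -4.76, SE 0.56, edgeR adjusted p = 0.00375). Gbp2, an interferon-induced GTPase, had 61.7, 30.5, 57.8 and 86.3 CPM in CTRL and 9.51, 8.82, 19.1, 24.0 and 17.8 CPM in EXP, again without overlap (log2 fold change -2.13 with an SE of 0.31, edgeR adjusted p = 0.00589), and its log2 fold change was -1.98 and -1.93 within Mgl2-low and Mgl2-high cells.

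The related GTPase Gbp4 fell by 2.11 on the log2 scale (edgeR adjusted p = 0.0254, and 0.0620, 0.130 and 0.105 without CTRL D1-2, CTRL D4-1 and EXP D4-1). Cxcl9 and Gbp2 kept their calls without any 1 of the libraries. Without the collagen-carrying members Cxcl9 was called and Gbp2 was not (log2 fold change -1.07, edgeR adjusted p = 0.457). In dermal dendritic cells Cxcl9 averaged 46.3 CPM in CTRL and 5.14 CPM in EXP, and Gbp2 84.9 and 39.2 CPM. Of 11 genes of the type I interferon response none passed the test, with a median log2 fold change of -0.37.

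**Figure D5:**
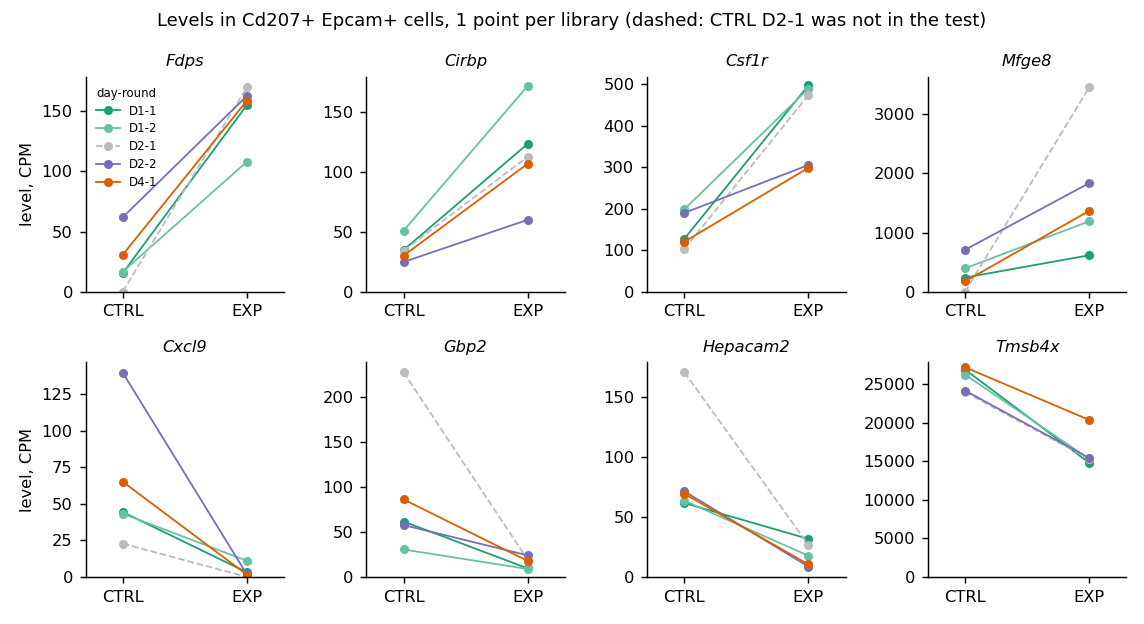
CPM of 8 genes in the Cd207+ Epcam+ cells of each library (y axes), CTRL and EXP joined by day and round; the dashed line is the D2-1 pair, whose CTRL library of 9 members was not in the test. Fdps, Cirbp, Csf1r and Mfge8 rise from CTRL to EXP along the 4 tested pairs and Cxcl9, Gbp2, Hepacam2 and Tmsb4x fall.

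Maturation genes moved in both directions. Of 15 costimulation and maturation genes 1 rose and 4 fell, with a median log2 fold change of -0.25. Ccl17, a chemokine for CCR4-bearing T cells, fell by 1.37, but differed more between libraries of an arm than between the arms, with 100, 162, 2331 and 498 CPM in CTRL and 31.7, 57.4, 459, 1180 and 452 CPM in EXP; within Mgl2-low cells its log2 fold change was 0.34. The T cell costimulator Cd80 fell by 1.43, the signalling adaptor Traf1 by 1.12 and the PD-1 ligand Pdcd1lg2 by 1.28 on the log2 scale (edgeR adjusted p 0.0278 to 0.0371). The costimulatory receptor Tnfrsf9 had 8.91 to 20.6 CPM in CTRL and 3.17, 110, 289, 68.6 and 144 CPM in EXP, EXP D1-1 being the lowest of all 9 libraries (log2 fold change 2.77, edgeR adjusted p = 0.0251).

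These 5 calls rested on single libraries. That of Ccl17 was lost without CTRL D2-2, EXP D1-1, CTRL D1-2 or EXP D1-2 (edgeR adjusted p up to 0.136), and those of Cd80, Traf1, Pdcd1lg2 and Tnfrsf9 without CTRL D4-1, EXP D4-1, CTRL D1-2 or EXP D1-2 (up to 0.148). Leaving out CTRL D2-2 ended the calls of Traf1 and Tnfrsf9, EXP D2-2 those of Cd80, Traf1 and Pdcd1lg2, CTRL D1-1 those of Cd80 and Pdcd1lg2, and EXP D1-1 that of Pdcd1lg2.

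Of 13 migration and retention genes 3 rose and none fell. The chemokine receptor Ccr1 rose by 1.90, the membrane collagenase Mmp14 by 1.13 and the tight junction gene Cldn1 by 1.07 on the log2 scale (edgeR adjusted p = 0.0254, 0.0196 and 0.0454). Ccr1 and Mmp14 missed the threshold without CTRL D2-2, CTRL D4-1 or EXP D4-1 (edgeR adjusted p up to 0.140), and Cldn1 without any library except EXP D2-2 (up to 0.109). With day and round as a block, the Cldn1 adjusted p was 0.0512, and its log2 fold change within Mgl2-high cells was -0.48. Cdh1 had 54.0 to 146 CPM in CTRL and 147 to 262 CPM in EXP, without overlap, and did not pass the test (log2 fold change 0.91, SE 0.27, edgeR adjusted p = 0.0636). With day and round as a block it did (edgeR adjusted p = 0.0286), and with single libraries left out its adjusted p ran from 0.0304 to 0.165.

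None of the 10 MHC class II pathway genes outside the rule passed the test, and their median log2 fold change was 0.00. Among 17 cytokine and chemokine genes, only Il23a, a subunit of interleukin 23, passed, with 0 to 4.38 CPM in CTRL and 3.17, 0, 5.73, 97.8 and 63.9 CPM in EXP (log2 fold change 3.56, SE 0.89, edgeR adjusted p = 0.0360). Its level was high in EXP D2-2 and D4-1 and near that of CTRL in the other 3, and the call was lost without CTRL D1-1, EXP D1-1, EXP D1-2, CTRL D2-2, CTRL D4-1 or EXP D4-1 (edgeR adjusted p up to 0.204). Il1b had 1583 to 2354 CPM in CTRL and 983 to 5337 CPM in EXP and did not pass (log2 fold change 0.08, SE 0.27, edgeR adjusted p = 0.885).

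Among 18 growth factor and cytokine receptor genes, Csf1r rose and Csf2ra, the alpha chain of the GM-CSF receptor, fell by 0.67 on the log2 scale (edgeR adjusted p = 0.0250). Of 13 NF-kappaB feedback genes 2 fell, Nfkb1 by 0.89 and Rel by 0.67, and none rose. Of 13 heat shock chaperone genes 2 fell, among them Hsp90ab1 by 0.66, and none rose. Errfi1, an inhibitor of EGF receptor signalling and 1 of 2 genes that fell among 9 of the glucocorticoid response, fell by 1.46 (edgeR adjusted p = 0.0165). None of 8 cell cycle genes passed the test. All 5 of these falls were lost without CTRL D4-1 or EXP D4-1 (edgeR adjusted p 0.0612 to 0.134). Csf2ra and Nfkb1 were also lost without EXP D1-2, Csf2ra, Rel and Hsp90ab1 without CTRL D2-2, Csf2ra and Rel without CTRL D1-2, Csf2ra without CTRL D1-1, and Rel without EXP D1-1 or EXP D2-2.

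Genes of the actin cytoskeleton and of ribosomes were among those that fell. Of 19 actin and cell shape genes 4 fell and none rose. Tmsb4x, which binds free actin, had 26865, 26216, 24135 and 27166 CPM in CTRL and 14777, 15278, 15277, 15412 and 20340 CPM in EXP, without overlap (log2 fold change -0.90, SE 0.09, edgeR adjusted p = 0.00172). Actg1 fell by 0.92 and Tmsb10 by 1.48 on the log2 scale; the latter did not hold without CTRL D2-2, CTRL D4-1 or EXP D4-1 (edgeR adjusted p up to 0.0855). Of 79 ribosomal protein genes 23 fell and none rose, with a median log2 fold change of -0.38. With upper-quartile scaling 14 fell, with DESeq2 35, and without the collagen-carrying members none of 79 did, with a median of -0.23. None was called within Mgl2-low or Mgl2-high cells alone, where the medians were -0.49 and -0.21. In dermal dendritic cells Tmsb4x averaged 23254 CPM in CTRL and 16272 CPM in EXP.

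The 12 genes with the largest rises by the naming rule included Saa3, Spint1, Abi3, Spata7, Alox5, St14, Dock5, Fads3, Sbk1, Msr1, Myo10 and Cd72. Cd72, a lectin of B cells and some myeloid cells, had 19.3, 70.0, 98.3 and 45.6 CPM in CTRL and 326, 338, 285, 232 and 291 CPM in EXP, far apart (log2 fold change 2.07, SE 0.32, edgeR adjusted p = 0.00640). Alox5, the lipoxygenase that starts leukotriene synthesis, had 2.5 to 22.9 CPM in CTRL and 44.0 to 98.3 CPM in EXP (log2 fold change 2.53, SE 0.39, edgeR adjusted p = 0.00640). The membrane protease matriptase, St14, and its inhibitor Spint1 both rose, by 2.42 and 2.84 on the log2 scale. These 4 genes and Abi3, Fads3 and Myo10 kept their calls without any 1 of the libraries. Dock5, Sbk1 and Spata7 each lost theirs without CTRL D2-2, CTRL D4-1 or EXP D4-1, and Sbk1 and Spata7 without further ones.

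Cd72, Alox5, St14 and Spint1 were all higher in Mgl2-low than in Mgl2-high cells. Msr1, a scavenger receptor, was higher in Mgl2-high cells and rose by 2.14 (edgeR adjusted p = 0.0375), with 19.0, 30.9, 42, 106 and 95.1 CPM in EXP against 7.5 to 19.1 CPM in CTRL. Saa3, an acute-phase protein, was at most 1.88 CPM in CTRL and at 3.17, 199, 11.5, 99.5 and 7.43 CPM in EXP, so that its level differed strongly between EXP libraries of the same day (edgeR adjusted p = 0.0321). The calls of Msr1 and Saa3 were lost without CTRL D1-1 or CTRL D2-2, that of Saa3 also without CTRL D1-2, and that of Msr1 without EXP D1-2, EXP D2-2, CTRL D4-1 or EXP D4-1 (edgeR adjusted p up to 0.202).

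Of the 12 largest falls, 11 were Ogn, Abca8b, Aspn, Igfbp5, Enpp2, Igsf10, Col5a1, Col1a1, Col1a2, Srpx and Gldn, and the other was Cxcl9. Most of the 11 encode matrix or secreted proteins that fibroblasts make. Aspn, Igfbp5, Col1a1 and Col1a2 kept their calls without any 1 of the libraries, and the others lost theirs or could not be tested without at least 1. Col1a1 had 891, 233, 1526 and 162 CPM in CTRL and 152, 33.1, 13.4, 13.7 and 4.46 CPM in EXP (log2 fold change -4.59, SE 0.73, edgeR adjusted p = 0.00731). The pooled Col1a1 level was also higher in CTRL than in EXP in dermal dendritic cells (2019 and 162 CPM) and in macrophages gated by complement genes (4756 and 1176 CPM). Abca8b had no UMI in any EXP library and averaged 23.9 CPM in CTRL, at least 20.3-fold higher when 3 UMIs over the EXP libraries are taken as the floor. Without the members that had at least 2 collagen UMIs the log2 fold change of Col1a1 was -2.46.

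Of the 9 fibroblast markers tested 6 fell and none rose, with a median log2 fold change of -2.82. Both neutrophil genes tested rose: S100a9 had no UMI in the 4 CTRL libraries and 0, 15.4, 24.8, 18.9 and 116 CPM in EXP, at least 50.9-fold higher by the same floor, and S100a8 had 1 CTRL library at 0.688 CPM and 0, 4.41, 24.8, 8.58 and 50.5 CPM in EXP. Cd63, a lysosomal membrane protein, rose by 1.70 and the lipoprotein lipase Lpl fell by 3.05 on the log2 scale (edgeR adjusted p = 0.00589 and 0.00640). Without EXP D4-1 the edgeR adjusted p was 0.110 for S100a9 and 0.228 for S100a8, and without CTRL D4-1 it was 0.0882 for S100a8.

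The members differed from dermal dendritic cells of the same libraries in 361 of 9116 genes, 3.96% (edgeR with library as a block, adjusted p under 0.05 and at least a 2-fold change; genes of either gate left out; 9 libraries). Of these, 230 were higher in members (2.52%) and 131 lower (1.44%). By the naming rule the largest rises were Ptgs1 (6.12), Ltc4s (5.35), Plek2, Mfge8 (4.55), Hapln3, Hpgds (4.11), Ocln and Tbc1d4 (3.55), as log2 ratios. Ptgs1, the cyclooxygenase 1 gene, averaged 99.1 CPM in members and 0.839 CPM in dermal dendritic cells. Like Ltc4s and Hpgds it makes lipid mediators, prostaglandins in its case.

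Most of this difference lay in the Mgl2-low cells: Ptgs1 had 221 CPM in CTRL and 272 CPM in EXP Mgl2-low cells and 2.07 and 15.8 CPM in Mgl2-high cells. Lowest in members were Plac8 (-3.60), the matrix protein gene Fn1 (-3.48), the chemokine gene Ccl6, Pi16, Lpl, Vcan, Apod and Fcgr1, the high-affinity IgG receptor. All 7 monocyte markers tested were lower in members, and 5 of 15 Langerhans identity genes were higher (Il1r2, Ly75, Mfge8, Cd24a and Ltc4s) and none lower. Of 7 conventional type 1 dendritic cell markers tested, 2 were higher (Irf8 and Itgae) and none lower. Against such cells the rule only asked for under 2 UMIs of Xcr1 and Clec9a together. Whether some remained among the members was not tested.

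The members differed from macrophages gated by complement genes (C1qa, C1qb and C1qc together at least 5 UMIs, Cd209a and Mgl2 under 2) in 1458 of 8064 genes, 18.1%, with 606 higher (7.51%) and 852 lower (10.6%) by the same test. Highest were the chemokines Ccl17 (log2 ratio 6.55) and Ccl22 (6.27), Aqp3, Slc27a3, Ly75, Sept3, Ccr7 (5.07) and Adam23. Lowest were the folate receptor Folr2 (-6.59), the chemokine Ccl8 (-6.57), Pf4, Ms4a7, Ccl12, Syngr1, Stab1 and Ccl24. Of 15 costimulation genes 12 were higher and 1 lower, of 10 MHC class II genes outside the rule 8 were higher and 1 lower, and all 7 macrophage markers were lower. Of 7 conventional type 1 dendritic cell markers 4 were higher and 1 lower.

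A further test asked which genes responded to expansion differently in members and dermal dendritic cells, and 1 of 9116 genes passed (0.011%; edgeR interaction of type and arm, library as a block, adjusted p under 0.05); 809 had an unadjusted p under 0.05, and DESeq2 called 23. Nceh1, a hydrolase of cholesterol esters, went from 108 CPM in CTRL to 259 CPM in EXP members and from 96.9 to 62.5 CPM in dermal dendritic cells (difference of log2 changes 1.88, SE 0.26, edgeR adjusted p = 0.0337). It was higher in Mgl2-low than in Mgl2-high members. The count fell to 0 without CTRL D1-1, CTRL D4-1, EXP D1-1, EXP D1-2, EXP D2-1 or EXP D2-2, and was 4 without CTRL D1-2 and 18 without CTRL D2-2. For Csf1r the difference was 1.12 (SE 0.21, edgeR adjusted p = 0.107), from 160 to 184 CPM in dermal dendritic cells.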

How the data were processed

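The deposited matrices are raw UMI counts for each gene in each barcode, not normalized by the authors; the submitters' processing notes name Cell Ranger 6.1.2 and mm10. The members and gene lists were chosen with earlier results of these data known. Cells were kept from 500 UMIs and 200 genes upwards, unless mitochondrial genes gave over 10% of their UMIs. Doublets (Scrublet in scanpy 1.11.5, or more than 1 hashtag) marked 45 members, which stayed in except in 1 alternative. Mice were assigned with HTODemux (Seurat 5.3.0, quantile 0.99). Counts were summed per library with at least 10 members, reduced by filterByExpr, given TMM factors and tested with edgeR 4.0.16 (R 4.3.3), adjusted by Benjamini-Hochberg over all genes tested; DESeq2 1.42.0 was an alternative. The tests were checked on simulated counts, drawn from a common profile with a fixed dispersion. That setting had no effect of day, library or makeup, so it does not vouch for the calls in these data. Shares were compared by exact permutation over 252 arrangements (smallest p 0.00794). Floors cover counting error only. The SDs are between libraries or mice, and the SEs come from the edgeR fits, which include the spread between libraries.

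Day-and-round numbers pair the libraries, since the labels give both arms of a number the same day and sequencing round, and paired deviations correlated at 0.278 to 0.520 over 2000 genes in 4 pairs. Named genes were the 12 highest and 12 lowest called log2 fold changes (mean of at least 20 CPM, same direction in the 4 pairs with at least 10 members in both libraries), up to 4 genes per list and, for cell types, the 8 at each end with at least 50 CPM. Other genes named, and the split by Cd209a and Mgl2, were chosen after their values were seen. Grouping followed the library names; 2 day 1 titles disagreed with them.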

Additional observations from a re-analysis of the deposited data

Results flagged for a closer look

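In groups of 4 to 10 libraries or mice, a value was singled out when its gap to the next took most of the group's range (Dixon's 95% limit). Of 164 groups looked at, 28 met this limit, 27 of them for a gene in the libraries of an arm, and chance alone gives about 1 in 20. In CTRL, D1-1 stood high in genes made by fibroblasts, with 339 CPM of Ogn, 345 of Aspn, 397 of Igfbp5 and 326 of Enpp2. CTRL D1-2 stood high in Dock5 (19.1 CPM) and low in Cd209a (392 CPM). CTRL D2-2 stood high in Csf2ra (453 CPM), Sqle (28.9 CPM), Lpl (99.7 CPM) and S100a8 (0.688 CPM), and CTRL D4-1 in Rpl28 (3456 CPM).

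In EXP, D1-1 stood high in Fads3 (69.7 CPM), Sbk1 (91.9), Cd163 (82.4) and the fibroblast genes Igsf10 (6.34), Col5a1 (6.34), Col1a1 (152), Col1a2 (222) and Srpx (9.51). EXP D1-2 stood apart in Cxcl9 (11.0 CPM, high) and Fdps (108 CPM, low). EXP D2-1 was low in Tmsb10 (84.1 CPM). EXP D2-2 was high in Ogn (1.72 CPM) and Gldn (5.15 CPM), and EXP D4-1 in Tmsb4x (20340 CPM), Ear2 (68.3 CPM) and S100a9 (116 CPM). Among the EXP mice of day 2, 1 mouse had 9.21% members, 7 of 76 Ptprc+ cells.

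Nceh1 differed between members and dermal dendritic cells in its response to expansion, by 1.88 on the log2 scale in edgeR's interaction test.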

How the results depend on the processing

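Without an Epcam minimum, the EXP minus CTRL difference was -2.58 percentage points of Ptprc+ cells and -87.7 per 100 keratinocytes (exact permutation p = 0.0238 each, adjusted 0.0476). Within the kinds, it was 0.590 points of Ptprc+ cells and 0.876 per 100 keratinocytes for Mgl2-low cells, and -0.495 points of antigen-presenting cells for Mgl2-high cells. Per mouse on day 2 alone it was 0.00106 points. With a Cd207 minimum of 1, the differences of Ccr7 and cycling shares were -0.946 and -1.21 points. Without 1 library each, the kept-cell difference ran from -0.280 to 0.0331, the Ccr7 difference from -1.57 to 3.99 and the cycling difference from -1.90 to 2.94 points.

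Genes called with expansion numbered 1118 with no filter on low counts, 137 with members thinned to 2000 UMIs, 10 in Mgl2-low and 72 in Mgl2-high cells alone and 58 without collagen-carrying members; without 1 library each they ran from 128 to 477. Counts against dermal dendritic cells were 123 with no library term, 180 thinned, 1221 for Mgl2-low and 127 for Mgl2-high cells; against macrophages, 828 with no library term and 523 thinned. The interaction gave 271 genes with no filter, 23 with DESeq2, 6 thinned, 3 in Mgl2-low and 0 in Mgl2-high cells, and 0 to 18 without 1 library each. Reversed directions within a kind were those of Mfge8 (-0.0632), Cldn1 (-0.480) and C1qa (-1.79) in Mgl2-high and Ccl17 (0.340) in Mgl2-low cells; Il1b ran from -0.192 to 0.354 without 1 library each. Where no reason is given, the cause was not tested.

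With the replicate block of day and round, 605 genes were called against 492; of the genes named, Cldn1 lost its call (adjusted p = 0.0512), Cdh1 gained 1 (adjusted p = 0.0286) and no other call of the expansion comparison changed. With no library term, Apod and Fcgr1 lost their calls against dermal dendritic cells. Of 107 gene results, 41 lost their call without CTRL D4-1 and 40 without EXP D4-1, against 6 to 21 without another library. The depth limits the Mgl2-low cells most, of which CTRL libraries hold 2 to 36.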

Other observations

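Il1b, an inflammatory cytokine, was described by kind and day. In Mgl2-low EXP cells it had 18.0, 871, 1887, 4177 and 4957 CPM in D1-1, D1-2, D2-1, D2-2 and D4-1. In Mgl2-high EXP cells the values were 2061, 3022, 3814, 3635 and 5549 CPM. Mgl2-low CTRL cells had 83.1, 152, 731 and 566 CPM in D1-1, D1-2, D2-2 and D4-1, and Mgl2-high CTRL cells 2019, 2328, 2516 and 2563 CPM. The Mgl2-low EXP cells thus had less Il1b than the Mgl2-high EXP cells on day 1 and, in D2-2 and D4-1, levels of the same order. Each Mgl2-low value rests on 12 to 26 cells in EXP, and no test was run.

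C1qa in Mgl2-low cells was at 104, 160, 575 and 59.6 CPM in the same CTRL libraries and at 529, 748, 884, 868 and 760 CPM in EXP. The highest CTRL value, of D2-2, lay above the lowest EXP value, of D1-1.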
